A study of Mus musculus with 6 samples.

Results

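The miR-17-92 cluster is a group of miRNAs cut from 1 transcript, the noncoding RNA Mir17hg, and its mature arms were described here in embryonic mouse cardiomyocytes (EMCMs). Its members were chosen by name alone: every row of the deposited miRNA table whose base name was miR-17, miR-18a, miR-19a, miR-19b, miR-20a or miR-92a, with any arm, copy suffix or asterisk. This gave 12 of 689 rows, 6 main arms and 6 passenger arms.

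A miRNA hairpin is cut into a short duplex with an arm from each side of its stem. The main arm is the one mostly kept and loaded into an Argonaute protein, where its seed, the bases from position 2 to 8, pairs with target mRNAs and lowers their translation or stability. The other arm, the passenger, is marked with an asterisk in the older names used here. The cluster is transcribed under Myc and E2f factors, is known to promote proliferation of embryonic and newborn cardiomyocytes, and falls in abundance as many tissues mature. Among its known targets are Cdkn1a and Bcl2l11 for the miR-17 family, Ctgf for miR-18a and Itga5 for miR-92a.

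EMCMs came from wild type hearts at E16.5, and were grown on Bioflex plates coated with collagen 1. The labels give 3 samples left static and 3 stretched cyclically by 16% at 1 Hz, each over 24 hours, of the Swiss Webster strain, while the study's methods name CD1 mice and 6 samples per group. No label says whether the samples came from separate isolations or litters, and cultures of this kind can hold cell types other than cardiomyocytes. Small RNA was sequenced, and the table used here gives for each miRNA 1 mean abundance, the authors' mean on a log2 scale over all samples. Hence the levels below have no spread between samples and were compared without a test, and the difference between stretched and static EMCMs was not analysed here.

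The mature sequences of the 6 main arms were read from RefSeq and are shown because the seed, in capitals, sorts them into 4 families. Each is written 5′ to 3′.
miR-17: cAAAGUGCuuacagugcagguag
miR-20a: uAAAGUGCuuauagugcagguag
miR-18a: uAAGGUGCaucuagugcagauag
miR-19a: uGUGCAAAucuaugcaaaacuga
miR-19b: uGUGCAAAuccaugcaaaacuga
miR-92a: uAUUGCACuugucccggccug

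miR-17 and miR-20a shared the seed AAAGUGC and differed at 2 of 23 positions, C1U and C12U, counted from 1 at the 5′ end with the base of miR-17 first. miR-18a differed from miR-17 at 6 of 23 positions, and 1 of these, A4G, lay in the seed and gave it a seed of its own, AAGGUGC. miR-19b and miR-19a differed at 1 of 23 positions, C11U, outside their common seed GUGCAAA. A read with an error at this base can be assigned to the other of the pair. miR-92a, the shortest main arm with 21 nt, had the highest GC content at 57.1%, and miR-19a had the lowest at 34.8%.

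The passenger arms are shown because none of their seeds is that of a main arm. A RefSeq sequence was found for 5 of the 6, all but miR-19a*, and each of these 5 seeds occurred in 1 row of the table among those with a matched sequence.
miR-17*: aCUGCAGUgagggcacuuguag
miR-20a*: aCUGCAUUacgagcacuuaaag
miR-18a*: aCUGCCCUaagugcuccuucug
miR-19b-1*: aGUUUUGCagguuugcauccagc
miR-92a-1*: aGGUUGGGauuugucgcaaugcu

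All 6 hairpins lie on the plus strand of chromosome 14 in GRCm38, within 836 bases from 115043671 to 115044506, in exon 2 of Mir17hg (115043271 to 115046727 in GENCODE M21). The order from the 5′ end is Mir17, Mir18 (the miR-18a hairpin), Mir19a, Mir20a, Mir19b-1 and Mir92-1. The main arm lies on the 5′ side of the stem in miR-17, miR-18a and miR-20a, and on the 3′ side in miR-19a, miR-19b and miR-92a. Second hairpins for miR-19b and miR-92a lie on the minus strand of chromosome X, Mir19b-2 from 52741983 to 52742066 and Mir92-2 from 52741838 to 52741928. Their main arms have the same sequence as those of chromosome 14, so reads of both places, where present, fall together in the rows miR-19b and miR-92a. The rows miR-19b-1* and miR-92a-1*, by contrast, name the chromosome 14 copy.

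The hairpins of miR-92a and miR-19b on chromosome 14 are shown with both arms in capitals, since they gave very different amounts of the passenger arm. In each, the passenger arm comes first and the main arm second.
Mir92-1: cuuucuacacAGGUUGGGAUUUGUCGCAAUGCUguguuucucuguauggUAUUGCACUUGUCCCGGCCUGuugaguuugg
Mir19b-1: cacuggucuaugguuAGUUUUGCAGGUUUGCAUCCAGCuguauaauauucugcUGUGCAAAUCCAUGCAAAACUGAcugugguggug

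Predicted by RNAfold, the minimum free energy of these hairpins was -34.0 kcal/mol for Mir92-1 and -37.8 kcal/mol for Mir19b-1. Among the 6 hairpins of chromosome 14 it lay between -38.7 kcal/mol for Mir19a and -29.2 kcal/mol for Mir18.

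The members spanned a wide range of abundance in EMCMs, with miR-92a the highest and miR-19a* the lowest. Together the 12 arms made up 0.0835% of the miRNA reads, or 835.1 RPM (reads in 1000000 miRNA reads), and 88.0% of this was in the main arms. For scale, miR-22, the most abundant row, made up 20.6% of the miRNA reads, 246-fold more than all 12 arms together. miR-223, the row of median rank, stood at 4.22 RPM, and all 6 main arms and the passengers miR-92a-1* and miR-18a* lay above it.

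The mean abundance of miR-92a was -11.67 on the log2 scale, which is 308.8 RPM and rank 98 of 689. miR-17 followed at -12.80, 141.3 RPM and rank 135. miR-19b was next to it at -12.90, 131.8 RPM and rank 137. These 3 main arms were higher than all the other arms of the cluster.

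miR-92a-1*, a passenger arm, came next at -13.47, 88.8 RPM and rank 151. miR-20a, a main arm, had nearly the same level, 88.6 RPM and rank 152. The lower main arms were miR-19a at -14.88, 33.3 RPM and rank 211, and miR-18a at -14.98, 31.0 RPM and rank 218. All main arms thus stood in the upper 31.6% of the rows, over a range of 9.95-fold between miR-92a and miR-18a.

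The other passenger arms were lower than every main arm. miR-18a* stood at -17.34, or 6.07 RPM, and miR-17* at -18.12, or 3.53 RPM. miR-20a* was at -19.83, or 1.08 RPM, and miR-19b-1* at -20.33, or 0.760 RPM. miR-19a* was at -24.23, or 0.0511 RPM, and at rank 661 it was among the lowest rows of the table.

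**Figure D1:**
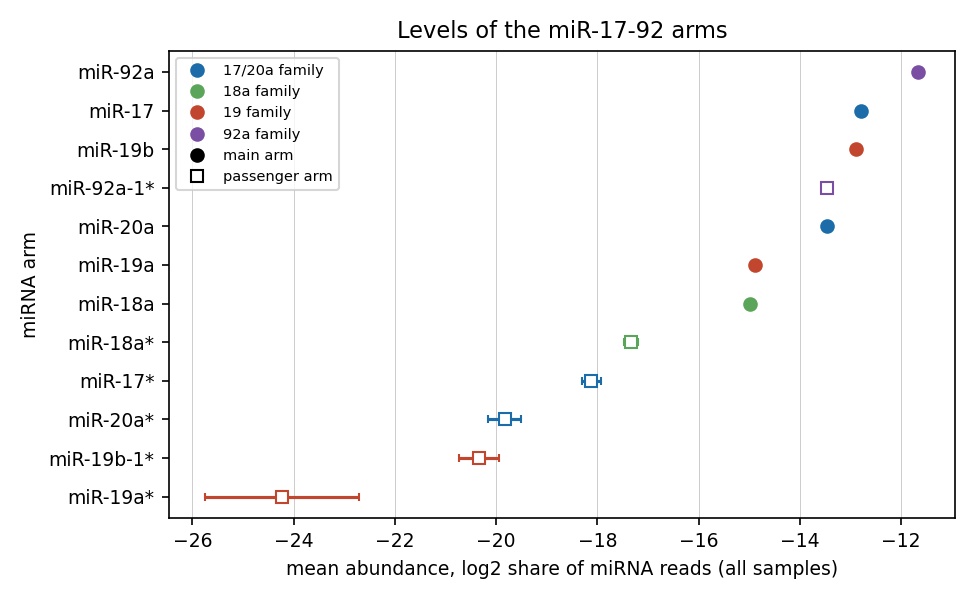
Mean abundance of each of the 12 arms over all samples (x axis, log2 share of miRNA reads), from the highest to the lowest, with filled circles for main arms, open squares for passenger arms and a color for each seed family. Bars are 95% intervals from the counting error at equal reads in both groups, where it is smallest, and do not include the spread between samples. miR-92a-1* is the passenger arm that lies among the main arms, beside miR-20a.

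The depth behind these values could be read from the lowest rows. All 42 of the lowest rows on the common scale lay within 0.01 of a ladder of steps, each a common unit times the square root of a whole number up to 8. This is the spacing that a geometric mean of the shares of 2 groups gives for whole reads. With the lowest row taken as a product of 2 reads, 1 read in each group corresponds to -25.02, or 0.0294 RPM, which makes an estimated 3.40e+07 miRNA reads per group. This reading of the steps was chosen after the values were seen, as the one in which the rows fill every whole number from 2 to 8. With the lowest row taken as a product of 4 or 6, all 42 rows lie on steps as well, and the reads per group come to 4.81e+07 or 5.89e+07. miR-19a* lay on the step with a product of 3, or 4 reads in all, against 5 to 7 and 6 to 10 reads in the other readings. In the first reading, the geometric mean of the reads per group was 25.7 for miR-19b-1*, 36.4 for miR-20a*, 119.7 for miR-17* and 205.4 for miR-18a*, and it lay between 1051 and 10456 for the main arms and miR-92a-1*.

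From these read numbers, the counting error of a mean abundance was computed for equal reads in both groups, where it is smallest. It was 0.00998 for miR-92a, 0.20 for miR-19b-1* and 0.78 for miR-19a* on the log2 scale. In the first reading miR-19a* has 1 read in one group and 3 in the other, so its error is larger than 0.78. miR-92a-1* and miR-20a differed by 0.0019, which is 0.0741 times the counting error of the difference, so their order was not detectable at this depth. miR-19a was above miR-18a by 0.10, or 2.37 counting errors, and miR-20a* above miR-19b-1* by 0.50, or 1.91 counting errors, which would be 2.27 or 2.51 in the readings with more reads. miR-17 exceeded miR-19b by 0.10, or 4.75 counting errors. The other neighbors in the order were at least 4.86 of these smallest counting errors apart. That lowest value, for miR-19b-1* over miR-19a*, is an upper bound in the first reading. Whether any of these differences exceeds the spread between cultures was not tested, since counting error leaves that spread out.

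**Figure D2:**
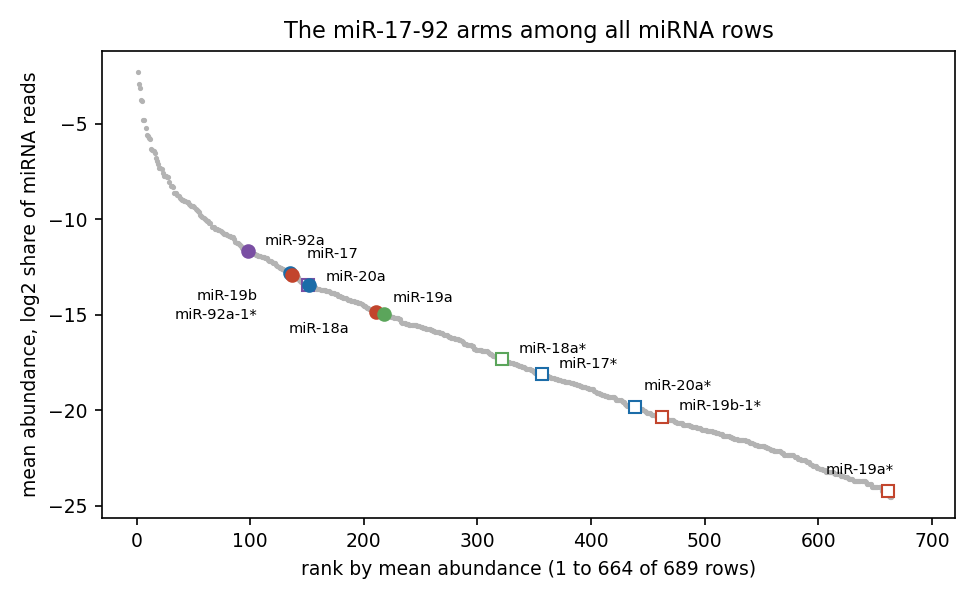
Mean abundance (y axis, log2 share of miRNA reads) against rank for the 664 rows on the common scale (gray points), with the 12 arms of the cluster marked as filled circles for main arms and open squares for passenger arms, colored by seed family. The 6 main arms and miR-92a-1* lie between rank 98 and rank 218, and the other passenger arms between rank 322 and rank 661.

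For each main arm, the rows outside the cluster with the nearest level were listed as a guide to its abundance. miR-92a lay beside miR-181a-1* (312.3 RPM) and miR-872 (312.9 RPM). miR-17 lay between miR-214* at 143.1 RPM and miR-342-3p at 137.9 RPM. miR-19b was next to miR-107 at 130.0 RPM and miR-126-3p, an arm of the endothelial miR-126, at 129.9 RPM. miR-20a was nearest to miR-132 and miR-872*, at 89.1 and 87.1 RPM. miR-19a was nearest to miR-362-5p and miR-22*, at 33.6 and 33.7 RPM, and miR-18a to miR-331-3p and miR-467a, both at 31.0 RPM.

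Hairpins were added up by the seed family of their main arm, first with both arms counted, although the passenger arms do not carry these seeds. On this count the miR-92a family held 47.6% of the cluster's reads, of which 88.8 RPM came from the passenger arm, with the seed GGUUGGG. The 17/20a family held 28.1%, with 61.5% of its main arm reads from miR-17. The miR-19 family held 19.9%, with 79.8% of its main arm reads from miR-19b, and miR-18a held 4.44%. With main arms only, the shares were 42.0% for miR-92a, 31.3% for 17/20a, 22.5% for miR-19 and 4.22% for miR-18a, and their order did not differ. How much of miR-19b and miR-92a comes from chromosome X was not measured, and reads from there would change all 4 shares and could change their order. In the main arms, miR-92a gave 308.8 RPM and the 17/20a family 230.0 RPM. If chromosome X gave as much miR-92a as chromosome 14, an assumption made for scale only, the chromosome 14 part would lie below 17/20a.

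miRNAs outside the cluster carry some of the same seeds, above all those of the miR-106b-25 cluster. The 4 most abundant of them are shown because their seeds, in capitals, are those of miR-92a or of miR-17 and miR-20a.
miR-25: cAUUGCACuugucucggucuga
miR-92b: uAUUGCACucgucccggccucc
miR-93: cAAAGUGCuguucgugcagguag
miR-106b: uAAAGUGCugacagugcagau

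The 4 families differed widely in how much of their seed lay in rows named for the cluster. The rows miR-92a and miR-19b can also hold reads from chromosome X. For their seeds the cluster's own part can thus be lower than the values below. For the seed AUUGCAC, miR-92a contributed 9.86% (95% Wilson interval 9.74% to 9.99%, counting error only) of 3131 RPM. Most of the rest was miR-25 with 2537 RPM, and miR-92b, at 282.2 RPM, was close to miR-92a itself. The low miR-32 added 2.70 RPM.

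For the seed AAAGUGC, miR-17 and miR-20a contributed 38.3% (37.8% to 38.8%) of 600.6 RPM. miR-93 stood at 286.6 RPM, above both, and miR-106b at 84.0 RPM, close to miR-20a. For AAGGUGC, miR-18a contributed 99.6% (99.2% to 99.8%), and miR-18b of the chromosome X cluster stood at 0.128 RPM. For GUGCAAA, miR-19a and miR-19b were the only rows with the seed among those with a matched sequence, and gave 165.1 RPM. The part of this from chromosome X, through miR-19b, was not measured. In all, 554 of 689 rows were matched to a RefSeq name, and 6 of the 12 paralogs looked for had a row of their own. No main row was found under the names miR-106a, miR-20b and miR-363 of the chromosome X cluster, miR-367, miR-19b-2 or miR-92a-2. The main arms of miR-19b-2 and miR-92a-2 have the sequences of miR-19b and miR-92a, so their reads, where present, fall in those rows. For the other names without a row, whether reads were absent, filtered out or assigned to other names was not tested. miR-106a differs from miR-17 at 1 of 23 positions (U10A). Reads of such near-identical miRNAs can be assigned to either name, so the division of a seed among its rows is uncertain to that extent.

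**Figure D3:**
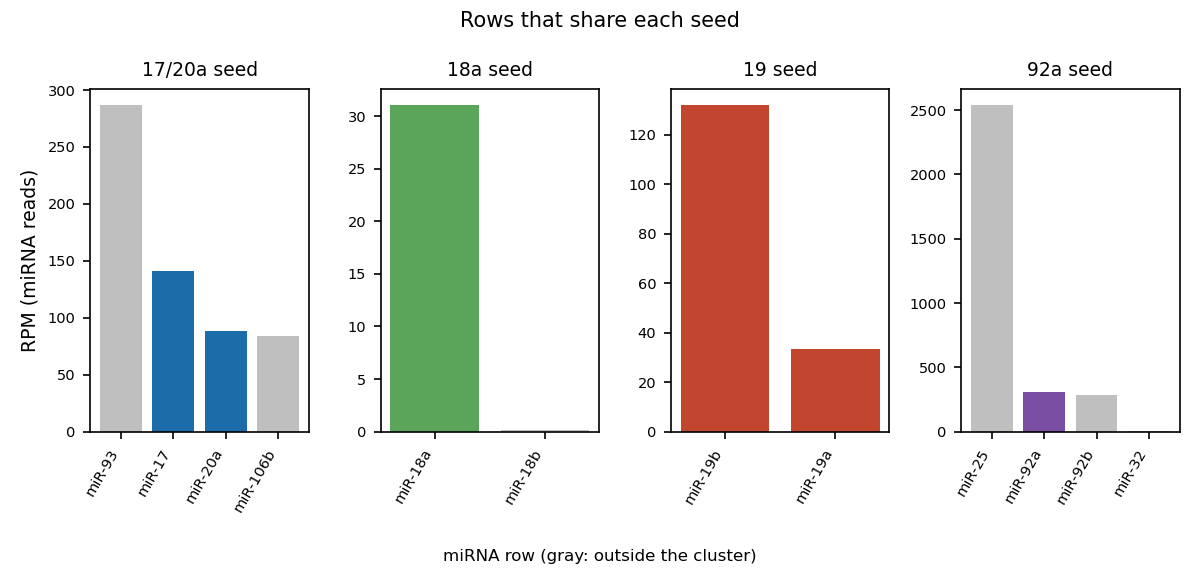
RPM (y axis, a separate scale in each panel, from 0) of every row that shares the seed of a main arm, with rows of the cluster in color and rows outside it in gray. miR-25 at 2537 RPM is far above miR-92a in its panel, and miR-93 is the highest row with the seed of miR-17 and miR-20a. The miR-19 panel holds only rows named for the cluster. The rows miR-92a and miR-19b can also hold reads from chromosome X.

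The hairpins differed in how strongly the main arm prevailed over the passenger. In the miR-92a hairpin the main arm exceeded miR-92a-1* by 1.80 on the log2 scale (counting error 0.0211), a 3.48-fold difference, and the passenger made up 22.3% of the reads of both arms. miR-18a exceeded miR-18a* by 2.35 (counting error 0.0778), or 5.11-fold. These were the hairpins with the smallest difference, and miR-18a* made up 16.4% of its pair.

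The difference was larger in the 17/20a family, 5.32 for miR-17 (counting error 0.0944, 40.0-fold) and 6.36 for miR-20a (counting error 0.17, 82.4-fold). It was largest in the miR-19 family, where miR-19b exceeded miR-19b-1* by 7.44 (counting error 0.20, 173-fold). miR-19a exceeded miR-19a* by 9.35 (counting error at least 0.78, 653-fold), a value that rests on the few reads of miR-19a*. The main arm was higher in 6 of 6 hairpins, as the older names imply, since they give the asterisk to the arm not mostly kept. For miR-92a and miR-19b the main arm can also hold reads from chromosome X. If both hairpins gave the same amount, an assumption made for scale only, the difference in the chromosome 14 hairpin would be 0.80 for miR-92a, or 1.74-fold, and 6.44 for miR-19b.

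Set beside the 186 other pairs of main and passenger arms in the table, which share 176 main rows, the cluster spanned much of the same range. The median difference was 5.84 in the cluster and 5.30 in the other pairs, whose quartiles were 2.37 and 8.46. These pairs are those with an asterisk name. With 68 pairs named 5p and 3p added, the median of the others was 4.25, and the counts below do not include them. The difference was smaller than that of miR-92a in 36 of the other pairs (19.4%) and smaller than that of miR-18a in 47 (25.3%). For miR-17 it was 94 (50.5%), for miR-20a 111 (59.7%), for miR-19b 125 (67.2%) and for miR-19a 150 (80.6%). The miR-92a hairpin stood between those of miR-30d and miR-872 in this order, and the miR-18a hairpin between miR-106b and miR-200a. The passenger arm exceeded the main arm in 16 of the other pairs (8.60%) and in 0 of the cluster's 6.

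**Figure D4:**
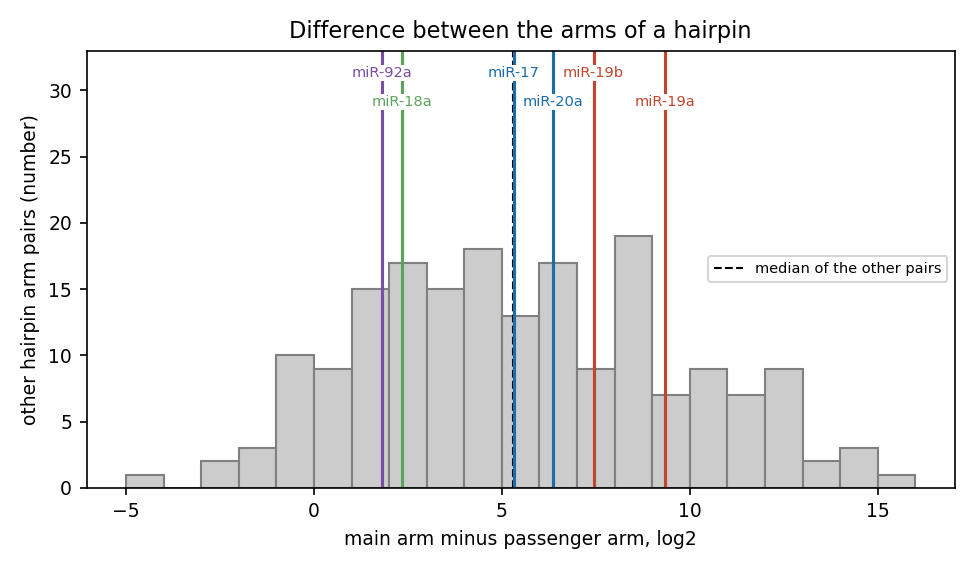
Number of the 186 other hairpin arm pairs (gray bars, y axis) by the difference in mean abundance between the main and the passenger arm (x axis, log2), with the 6 hairpins of the cluster as lines colored by seed family and the median of the other pairs dashed. miR-92a at 1.80 and miR-18a at 2.35 lie left of the median of 5.30, miR-17 at 5.32 lies on it, and miR-20a, miR-19b and miR-19a lie to the right.

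Levels did not follow the order of the hairpins in the transcript. From the 5′ end, both arms together gave 144.9 RPM for Mir17, 37.1 for Mir18, 33.4 for Mir19a, 89.7 for Mir20a, 132.6 for Mir19b-1 and 397.5 for Mir92-1. The lowest values thus belonged to the hairpins that begin 180 and 329 bases from the start of Mir17, and the highest to the last one, 756 bases from it. The values for Mir19b-1 and Mir92-1 can include main arm reads from chromosome X. Of the 397.5 RPM, only the 88.8 RPM of miR-92a-1* name the chromosome 14 copy. miR-19a and miR-19b, which differ at a single base, were 3.95-fold apart, and a part from chromosome X in miR-19b was not measured. Main arms of the 5′ side lay between 31.0 and 141.3 RPM and those of the 3′ side between 33.3 and 308.8 RPM, so the 2 ranges overlapped.

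**Figure D5:**
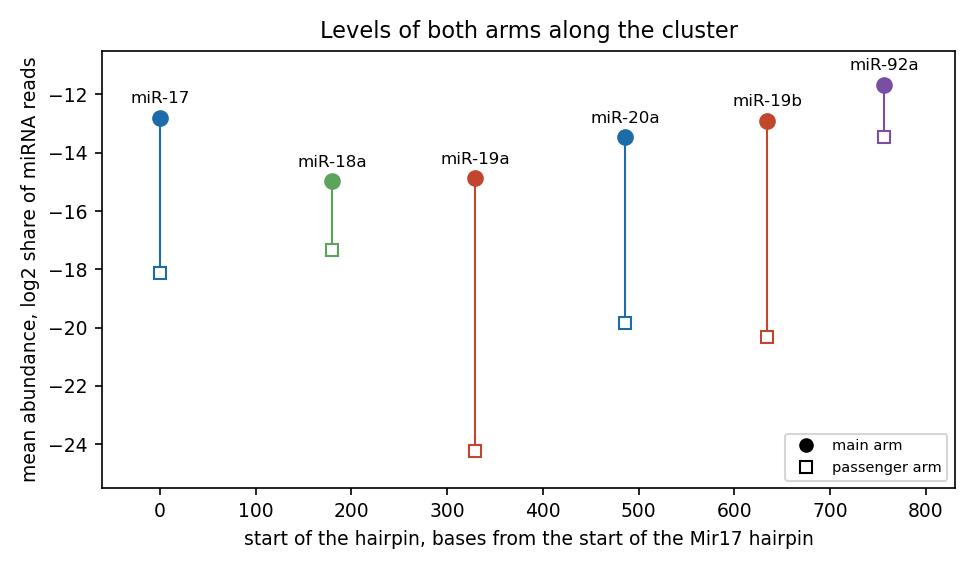
Mean abundance (y axis, log2 share of miRNA reads) of the main arm (filled circle) and passenger arm (open square) of each hairpin, joined by a line, against the start of the hairpin in bases from the start of Mir17 (x axis). The main arms are lowest at 180 and 329 bases and highest at 756 bases, and the line is shortest for miR-92a and longest for miR-19a. The main arms miR-19b and miR-92a can also hold reads from chromosome X.

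The labelled cell type was compared with its markers. All 6 cardiomyocyte miRNAs looked for had a row, and their rows summed to 1.51% of the miRNA reads, with 1.18% from miR-208b alone. The highest were miR-208b at 11788 RPM, miR-133a at 1869 RPM and miR-208a-3p at 750.0 RPM. Lower were miR-1a at 396.9, miR-499 at 215.1, miR-208a-5p at 119.2 and miR-133b at 10.7 RPM. The 2 miR-1b rows stood at 0.786 and 0.0591 RPM. miR-143, known from smooth muscle, was the second row of the table at 13.4%, while its partner miR-145 stood at 697.4 RPM. The fibroblast miRNAs miR-199a, miR-199b and miR-214 summed to 0.600%. This sum includes the same value, 1593 RPM, under both miR-199a-3p and miR-199b, and is too high by that amount if these are the same reads. The 2 arms of miR-126 summed to 0.479%, with miR-126-5p at 4663 RPM and miR-126-3p at 129.9 RPM. The 4 blood miRNAs summed to 82.6 RPM and the 5 epithelial ones to 35.5 RPM. Of the blood sum, 75.3 RPM was miR-142-5p, while miR-223, miR-142-3p, miR-451 and miR-144 stood at 4.22, 1.77, 0.873 and 0.452 RPM. The cluster's 835.1 RPM can come from any of these cells, which was not tested, and in such bulk cultures more cells with the cluster and more of it per cell cannot be told apart.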

How the data were processed

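miRNA-Seq was performed by the authors with TruSeq Small RNA libraries on a HiSeq2500. According to the study's methods, adapters were trimmed, short tags were aligned to the mouse genome using Bowtie2, and hits were summed per gene ID. The labels list Bowtie2 and DESeq among the authors' tools, and the study's methods name another package for the count model. The genome build, the versions and the mismatches allowed are not given in the sources used here. Capture and amplification can differ between miRNAs, which was not tested and could change levels compared between them.

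The table held 5 columns of values for 689 rows. One column, which the authors deposited as log2 values, is the mean abundance, with 1 value for all samples. The other 4 columns hold the authors' comparison of stretched and static EMCMs (log2 fold change, signed fold change, P value and FDR) and were not used. The test planned for counts per sample was not run, because the table gives means. Shares, 2 to the power of the value, summed to 0.995 and were rescaled to 1 and given as RPM. In 25 rows the value was under -30, apart from the scale of the others. No member was among these, and 13 arm pairs with such a row were left out of 205. No member had values identical to another row, which 30 rows had.

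Read numbers per group and counting errors were derived from the steps of the lowest values, a procedure added after the data were examined, in which more than 1 reading of the steps is possible. Such errors cover counting only and assume equal reads in both groups, and PCR copies are not independent molecules. The depth of a single sample is not known. Passenger rows were paired with main rows by name, and arms were named from general knowledge of the older names. Sequences, hairpins and their positions came from RefSeq on GRCm38.p6, and exons from GENCODE M21. The rows named were the members, a list of paralogs, the nearest rows in level and arm difference, the most abundant and the median row, and cell type markers. The members and lists were chosen with earlier results of these data known. Hairpins were folded with RNAfold of ViennaRNA 2.7.2, intervals came from scipy 1.17.1, figures from matplotlib 3.10.9, and the remaining steps ran in pandas 2.3.3 and numpy 2.4.6 under Python 3.11.15.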

Additional observations from a re-analysis of the deposited data

How the results depend on the processing

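The share of the miRNA reads held by the 12 arms, 0.0835%, was 0.105% without miR-22, and moved less than its counting interval without rescaling or with identical rows counted once. The median arm difference of the cluster, 5.84, was 5.32 when only passenger arms above the lower quartile of all rows were used, which leaves out miR-19a*. That of the other pairs, 5.30, was 4.41 under the same filter and 4.25 with 68 pairs named 5p and 3p added. The family shares for 17/20a, miR-18a, miR-19 and miR-92a were 31.3%, 4.22%, 22.5% and 42.0% with main arms only. With both arms counted and the levels of miR-19b and miR-92a divided by 2 for their second hairpins, they were 38.2%, 6.03%, 16.3% and 39.5%. The median arm difference of the cluster was then also 5.84. It lies midway between miR-17 and miR-20a, whose levels this division does not change, so it cannot show the effect of the assumption. The cluster's part of each seed did not differ with a seed of bases 2 to 7. Leaving out rows marked with an asterisk had no effect to show, since no row with these seeds carries one. The reads per group, 3.40e+07, were 4.81e+07 or 5.89e+07 in the other readings of the steps, alternatives chosen after seeing the data.

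No paired analysis was possible because each miRNA has 1 pooled value. No replicate was left out and no other count normalization was run, for want of columns by sample. Depth limits the passenger arms most, above all miR-19a*, with 4 reads, or up to 10 in the other readings.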
